A study of Homo sapiens with 36 samples.

Results

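The transcripts of 55 cell cycle and DNA replication genes were followed through 12 groups of prostate cancer cells. The 55 were chosen by gene symbol from a list of textbook cell cycle genes. No measured value entered the rule, but members and lists were chosen with earlier results of these data known. All 55 were found among the 61805 named entries of the gene count table. By role, 18 belong to DNA replication, 18 to the control of the G1/S transition and 19 to mitosis, and the 3 roles are described apart. All passed the filter on low counts in every fit.

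A dividing cell first licenses its replication origins. The origin recognition complex, of which ORC1 is a subunit, with CDC6 and CDT1 loads the MCM2 to MCM7 helicase, and geminin (GMNN) binds CDT1 to prevent a second loading in the same cycle. CDK4 or CDK6 with D cyclins and CDK2 with E cyclins phosphorylate RB1 and its relatives, which frees E2F factors to switch on replication genes. CDK1 with cyclin B drives entry into mitosis, and CDC20 activates the ubiquitin ligase that ends it. In prostate cancer cells androgen is known to act on proliferation through the androgen receptor, and proliferation genes are widely used as a readout of growth.

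LNCaP is an androgen-responsive prostate cancer line first grown from a metastasis, and its derivative 42D is resistant to the receptor antagonist enzalutamide. Each cell line carries a control line named NT3 and a line named sgT33-5, and LNCaP has 2 more, sgT33-5_MC_C2 and sgT33-5_MC_F2, called C2 and F2 here. The labels do not expand these names, so NT3 is read as a non-targeting control and sgT33-5 as a guide RNA against TRIM33 from the title of the series, and whether C2 and F2 each grew from 1 cell is not given. All 12 groups shared culture for 3 days in medium with charcoal-stripped serum, which is poor in steroid hormones, followed by 6 h with DMSO (the solvent) or with 5 nM of the synthetic androgen R1881. Each group has 3 libraries. The labels do not say whether these came from separate cultures, so the p-values measure the spread between libraries, which may be technical.

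The libraries held 13900744 to 19793268 counts. TRIM33, an E3 ubiquitin ligase, averaged 93.4 CPM (counts scaled to a common library total) in LNCaP NT3 with DMSO against 47.8 in sgT33-5, 35.1 in C2 and 42.3 in F2, and 84.5 against 57.3 in 42D. Mitochondrial genes took 2.14% and 2.40% of the counts in 2 LNCaP sgT33-5 libraries (replicate 3 with DMSO and replicate 1 with R1881), below all other libraries, so results of that line are also given without them. Markers of luminal prostate cells summed to at least 2418 CPM in every library, while 3 basal markers summed to at most 0.614 CPM. In LNCaP, the replicate numbered 2 had the lowest summed level of the mitotic genes, and of the G1/S genes, in 8 of 8 groups. In bulk RNA, a larger share of cells in a phase and more RNA per cell in that phase cannot be told apart.

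Levels of different genes were compared per length of transcript, as RPKM (CPM per kilobase of exon, mean ± SD, n = 3). In LNCaP NT3 with DMSO the highest were CKS2, a small CDK-binding protein, at 112 ± 13.1 RPKM, cyclin D1 (CCND1) at 83.6 ± 2.99, the replication clamp PCNA at 78.5 ± 4.81, cyclin B1 (CCNB1) at 69.7 ± 7.7 and the transcription factor MYC at 59.6 ± 8.35. The lowest were the kinase CDK6 at 0.28 ± 0.105 RPKM and the E2F factors E2F2, E2F8 and E2F7 at 2.19 ± 0.191, 2.99 ± 0.27 and 3.13 ± 0.508. The licensing factor CDT1 also stood low, at 3.16 ± 0.539 RPKM. In 42D NT3 with DMSO, PCNA led at 139.7 ± 3.81 RPKM, followed by CKS2 at 132 ± 5.21 and MYC at 109.7 ± 12.9, and CDK6 was again the lowest at 0.0329 ± 0.0162.

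Motifs in the promoters were counted by role. RefSeq transcript starts (GRCh38.p14) were given for 45 of the 55 genes, with 66 promoters in all, and the 250 bases before each start were searched on both strands. The letters were 4 forms of the E2F site (TTTGGCGC, TTTCGCGC, TTTCCCGC, TTTGCCGC), 2 forms of the cell cycle homology region (TTTGAA and, as a known variant, TTCGAA), which late cell cycle promoters are known to carry, the CCAAT box, and a half-site of the androgen response element (AGAACA). The letters of no motif contain those of another. An E2F form occurred in 9 of 26 promoters of replication genes (34.6%), 4 of 16 of G1/S genes (25.0%) and 1 of 24 of mitotic genes (4.17%), against 2.79% of all 35116 promoters of the same length. The cell cycle homology region showed the opposite order, with 1 of 26, 1 of 16 and 12 of 24, against 14.3% of all promoters. CCAAT was found in 19 of 26 replication, 7 of 16 G1/S and 18 of 24 mitotic promoters, against 32.0% of all. The androgen half-site was found in 2 of 26, 1 of 16 and 2 of 24 promoters, against 12.4% of all. Such a match is a description of letters and not a measured binding site.

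The promoters of CDT1, E2F1, CDC20 and CDK1 are shown because their genes carry the results below and hold different motifs, in lower case, 5′ to 3′ on the strand of the gene, with matches on either strand to the E2F, cell cycle homology and CCAAT letters in capitals. That of CDT1 is chr16:88803539-88803788, plus strand, that of E2F1 chr20:33686386-33686635, minus strand, that of CDC20 chr1:43358731-43358980, plus strand, and that of CDK1 chr10:60778081-60778330, plus strand, all on GRCh38. The bases after each start were looked up in GENCODE v29 transcripts of the same gene. They were found for 56 of the 66 promoters, including those shown of CDT1, E2F1 and CDK1 but not that of CDC20.
CDT1: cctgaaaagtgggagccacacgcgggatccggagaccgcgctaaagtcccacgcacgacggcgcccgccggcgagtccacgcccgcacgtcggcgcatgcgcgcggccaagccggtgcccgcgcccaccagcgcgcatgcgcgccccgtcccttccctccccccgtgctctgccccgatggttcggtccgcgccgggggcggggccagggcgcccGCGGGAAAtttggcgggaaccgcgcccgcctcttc
E2F1: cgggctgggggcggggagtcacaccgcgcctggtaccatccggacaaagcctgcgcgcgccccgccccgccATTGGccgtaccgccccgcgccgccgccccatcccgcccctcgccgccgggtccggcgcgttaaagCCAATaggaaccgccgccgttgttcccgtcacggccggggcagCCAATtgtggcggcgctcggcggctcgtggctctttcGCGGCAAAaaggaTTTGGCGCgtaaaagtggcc
CDC20: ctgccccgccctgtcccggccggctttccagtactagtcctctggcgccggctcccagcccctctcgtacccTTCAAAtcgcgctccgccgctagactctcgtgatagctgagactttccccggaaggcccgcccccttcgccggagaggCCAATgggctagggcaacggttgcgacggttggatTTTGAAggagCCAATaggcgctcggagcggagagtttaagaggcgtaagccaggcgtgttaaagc
CDK1: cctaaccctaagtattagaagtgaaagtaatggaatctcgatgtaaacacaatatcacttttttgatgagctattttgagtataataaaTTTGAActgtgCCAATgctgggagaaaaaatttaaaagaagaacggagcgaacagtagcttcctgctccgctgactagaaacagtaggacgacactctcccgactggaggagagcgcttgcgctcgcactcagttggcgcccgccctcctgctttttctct
In these windows CDT1 and E2F1 hold E2F letters close to the start, CDC20 and CDK1 hold the cell cycle homology letters and CCAAT, and E2F1 holds CCAAT as well. A further CDK1 promoter starts 147 bases from the 5′ end of the gene model. It holds 1 E2F form, 2 cell cycle homology matches and 2 CCAAT boxes, and is the 1 mitotic promoter with an E2F form.

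**Figure D1:**
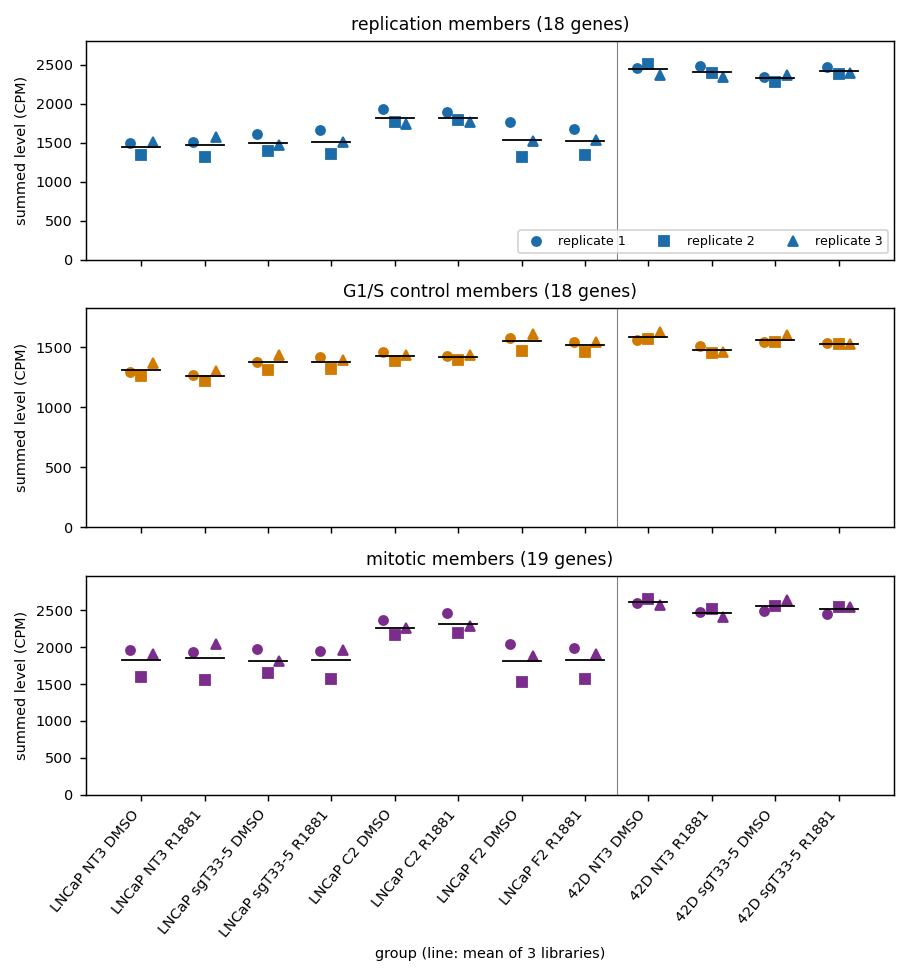
Summed level in CPM of the replication, G1/S and mitotic genes in each of the 36 libraries by group, 1 symbol per replicate number, with a line for the group mean. With DMSO the replication sum spans 1346 to 1516 CPM in LNCaP NT3, 1742 to 1932 in C2 and 2368 to 2508 in 42D NT3.

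42D against LNCaP was the largest contrast for these genes. With DMSO, 42 of the 55 were higher in 42D NT3 than in LNCaP NT3 and 4 were lower (edgeR, adjusted p under 0.05), where 34.8% of the 16564 genes tested were higher and 33.3% lower. The median log2 fold change of the 55 was 0.56, against 0.0027 over all genes tested. Of the replication genes 17 were higher and 1 lower (median 0.78), of the G1/S genes 11 and 3 (median 0.44), and of the mitotic genes 14 and 0 (median 0.46). With R1881 40 were higher and 3 lower (background 34.7% and 34.2%), and 39 of the higher and 3 of the lower calls were shared by both treatments. The 2 contrasts use different libraries of the same lines. Calls shared between comparisons, here and below, were not counted over all genes tested. Log2 fold changes below are followed by their standard error in brackets and rest on 3 libraries against 3.

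Among replication genes, CDT1 (chromosome 16, 88803789 to 88809258) stood at 9.94, 9.12 and 12.6 CPM in the LNCaP NT3 libraries with DMSO and at 31.2, 37.3 and 34.2 in 42D NT3. The groups lay far apart, with a log2 fold change of 1.70 (0.124) and an adjusted p of 1.86e-14. CLSPN, which encodes the checkpoint adaptor claspin, stood at 35.0, 29.8 and 34.4 CPM in LNCaP and 77.4, 76.7 and 74.2 in 42D, a difference of 1.20 (0.0854) on the log2 scale. ORC1 was at 21.5, 21.0 and 25.1 CPM in LNCaP and 51.0, 49.4 and 44.4 in 42D, 1.10 (0.139). Every 42D library exceeded every LNCaP library for these 3 genes. The helicase subunits MCM2 to MCM7 were all called, from 0.34 for MCM5 to 1.04 for MCM2. CDC6 differed by 1.02 (0.118), the reductase subunit RRM2 by 0.97 (0.118), thymidylate synthase (TYMS) by 0.90 (0.104) and PCNA by 0.83 (0.0753). MCM5 had the smallest of the 17 differences, and its call was lost without LNCaP NT3 replicate 2 (adjusted p = 0.0594). The call of CDC45, a helicase cofactor, was lost without the same library (0.055).

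Geminin was the exception among replication genes. GMNN (chromosome 6, 24774931 to 24786099) stood at 33.0, 32.7 and 36.3 CPM in LNCaP NT3 with DMSO and at 31.3, 29.3 and 29.4 in 42D NT3, a log2 fold change of -0.18 (0.0792) with an adjusted p of 0.0414. The groups do not overlap, but their nearest libraries differ by little. This call was lost with DESeq2 (adjusted p = 0.077), with other size factors (0.0509), without the filter (0.0795), without 42D NT3 replicate 2 or 3 (0.0892 and 0.109) and without LNCaP NT3 replicate 3 (0.192). With R1881 GMNN was instead higher in 42D, at 41.2, 44.4 and 40.1 CPM against 38.0, 31.1 and 37.6 in LNCaP, 0.24 (0.0768), adjusted p = 0.00675. Without LNCaP NT3 with R1881, replicate 2, which had the lowest value, that adjusted p was 0.0873.

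Among G1/S genes, 3 E2F factors had the largest differences upward. The activator E2F2 stood at 11.5, 11.2 and 13.1 CPM in LNCaP NT3 with DMSO and at 30.1, 33.1 and 30.1 in 42D NT3, 1.38 (0.0961), and E2F1, whose promoter is shown above, at 54.4, 47.6 and 56.7 CPM in LNCaP and 125, 118 and 117 in 42D, 1.18 (0.111). The atypical repressor E2F8 was higher too, at 32.0, 29.1 and 30.6 CPM in 42D against 13.6, 11.3 and 12.2, 1.30 (0.136). For these 3 genes every 42D value lay above every LNCaP value. MYC was at 165, 164 and 208 CPM in LNCaP and 306, 308 and 374 in 42D, 0.88 (0.107). CKS1B, a cofactor of SKP2, and the phosphatase CDC25A differed by 0.87 (0.115) and 0.79 (0.0878), and the retinoblastoma gene RB1 by 0.35 (0.0514).

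The 3 lower G1/S genes were a kinase, a cyclin and an inhibitor. CDK6 (chromosome 7, 92604921 to 92836573) stood at 2.34, 3.09 and 4.86 CPM in LNCaP NT3 with DMSO and at 0.239, 0.347 and 0.624 in 42D NT3, -3.06 (0.395). Behind the 42D values are raw counts of 4, 5 and 10, so this level rests on few reads. CDKN1B, which encodes the CDK inhibitor p27, was at 94.1, 91.8 and 93.5 CPM in LNCaP and 57.8, 62.2 and 57.4 in 42D, -0.66 (0.0611). CCND1 (chromosome 11, 69641156 to 69654474) was 388, 408 and 416 CPM in LNCaP and 316, 324 and 344 in 42D, -0.30 (0.0436). None of the 3 genes had overlapping groups. CDK4, which shares the D cyclins with CDK6, was not called: its difference was 0.01, with a 95% interval of -0.11 to 0.13. Cyclin E1 (CCNE1) and CDK2 were not called either, with intervals of -0.23 to 0.16 and -0.19 to 0.10.

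Mitotic genes were higher in 42D with fewer large differences. CDC20 (chromosome 1, 43358981 to 43363203) stood at 102, 84.8 and 94.9 CPM in LNCaP NT3 with DMSO and at 224, 230.3 and 211 in 42D NT3, 1.24 (0.133). MYBL2, a transcription factor of late cell cycle genes, stood at 112, 85.8 and 111 CPM in LNCaP and 231, 250.1 and 229 in 42D, 1.20 (0.138), and the spindle checkpoint kinase BUB1B at 61.1, 50.3 and 59.7 CPM in LNCaP and 106, 104 and 104 in 42D, 0.88 (0.107). For each of them the lowest 42D library exceeded the highest LNCaP library. MKI67, the Ki-67 proliferation marker, was called as well, by 0.43 (0.147), but its libraries overlap: 188, 149 and 228 CPM in LNCaP and 268, 224 and 269 in 42D. The MKI67 call was lost without LNCaP NT3 replicate 2 (adjusted p = 0.0904) and in a fit of only the libraries compared (0.0857). Those of CCNB1, PLK1 and CCNF were also lost without LNCaP NT3 replicate 2 (0.058, 0.0538 and 0.0773). That of CCNF was lost without 42D NT3 replicate 1 as well (0.0687). CDK1 (chromosome 10, 60778331 to 60794852) was not called, at 235, 198 and 211 CPM in LNCaP and 214, 229.9 and 196 in 42D, with an interval of -0.26 to 0.24 for the log2 difference. Cyclin A2 (CCNA2) and CDC25C were not called, with intervals of -0.20 to 0.31 and -0.23 to 0.24. With R1881 the mitotic count was 11 higher and 0 lower, with CDC20 at 1.15 and MYBL2 at 1.11.

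Other genes of the same pathways, taken from lists that hold none of the 55, were counted in the same fit. With DMSO 42 of 55 other replication genes were higher and 3 lower, among them the polymerase subunits POLA2 and POLD1, at 1.33 (0.132) and 1.28 (0.136), and on the lower side the reductase subunit RRM1, at -1.28 (0.0898). RRM1 thus lay lower in 42D while RRM2, the other subunit of the same enzyme, lay higher. Of 60 other mitotic genes 48 were higher and 1 lower, with the kinesin KIF23 at 1.20 (0.12). Of 29 further control genes 11 were higher, such as the WEE1-family kinase PKMYT1 at 1.45 (0.142), and 9 lower, such as the p16 gene CDKN2A at -1.39 (0.14). Markers moved with this contrast: 4 neuroendocrine markers summed to 31.5 to 33.4 CPM in 42D NT3 with DMSO and 1.55 to 2.22 in LNCaP NT3, and in 42D 1 of the 4 was at 0 in all 3 libraries. Of 9 luminal markers 3 were higher and 5 lower in 42D, with sums of 3406 to 3711 and 4310 to 4586 CPM, and mitochondrial genes took 2.94% to 3.32% of counts in 42D and 5.70% to 6.66% in LNCaP. Their part in the result was not tested.

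**Figure D2:**
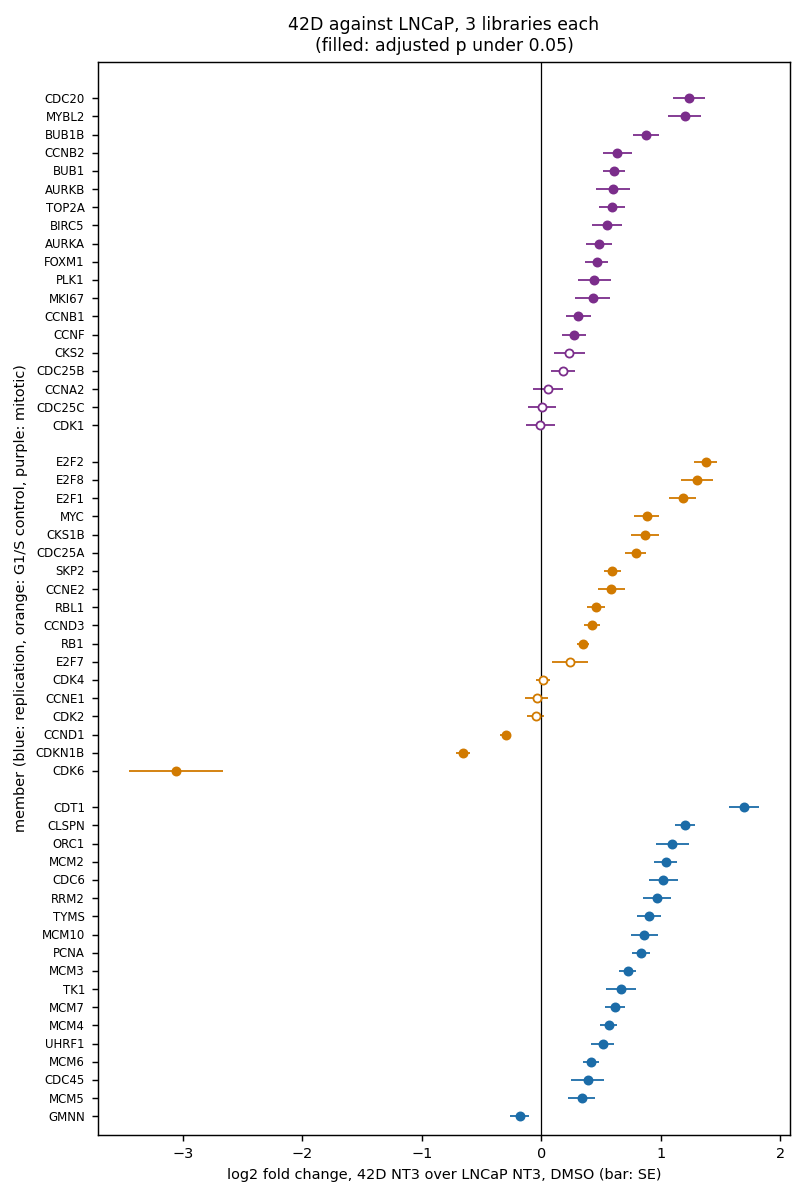
Log2 fold change of each of the 55 genes (vertical axis, coloured by role) in 42D NT3 against LNCaP NT3 with DMSO on the horizontal axis, with bars for the SE and filled points for genes that passed the test. CDT1 lies farthest to the right at 1.70 and CDK6 farthest to the left at -3.06.

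With R1881 fewer of these genes were called in LNCaP than in 42D. The precision of the fits differed as well. In the sgT33-5 lines the SE for cyclin E2 was 0.125 in LNCaP and 0.0767 in 42D. For cyclin D3 it was 0.0699 and 0.0533, while for CDK6 it was 0.221 and 0.425. A count of calls therefore does not compare the sizes of the responses. The difference in response between the cell lines passed the test for GMNN alone among the 55. In LNCaP NT3 1 of the 55 genes rose and none fell, where 8% of the 15519 genes tested rose and 5.15% fell, and DESeq2 gave the same count, while without the filter 2 rose and 1 fell. That gene was CDK6, at 2.34, 3.09 and 4.86 CPM with DMSO and 7.59, 7.18 and 10.2 with R1881, a log2 fold change of 1.28 (0.241) with an adjusted p of 0.000447. In F2 CDK6 was again the 1 gene called (background 6.4% and 3.98%), from 7.98, 6.99 and 10.3 to 19.5, 18 and 23.4 CPM, 1.25 (0.187). All libraries with R1881 exceeded all with DMSO in both lines. The numbers pair the F2 libraries (each pair's deviations correlated above 0.1), and with the replicate number as a block 6 genes were called in F2, 4 upward and 2 downward. In LNCaP NT3 the block gave 5 upward and 5 downward, but the lowest of its 3 pair correlations was 0.0931. The background shares are from the fit without the block.

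In LNCaP sgT33-5 3 genes rose and 1 fell with R1881 (background 6.78% and 5.7%). CDK6 went from 4.02, 4.59 and 5.93 to 7.15, 9.36 and 11.1 CPM, 0.91 (0.221). UHRF1, which guides DNA methylation to new DNA, differed by 0.37 (0.108), cyclin D3 (CCND3) by 0.23 (0.0699) and cyclin E2 (CCNE2) by -0.39 (0.125). Without the 2 libraries of low mitochondrial share CDK6 alone was called, and the adjusted p was 0.113 for UHRF1, 0.254 for CCND3 and 0.11 for CCNE2. Leaving out sgT33-5 with DMSO, replicate 1 or replicate 2, or sgT33-5 with R1881, replicate 1, each left 2 calls. In C2 0 genes were called (background 3.6% and 2.06%), with 0 at an unadjusted p under 0.05 in edgeR and 0 called by DESeq2. CDK6 in C2 was 2.93, 2.85 and 3.79 CPM with DMSO and 3.54, 4.54 and 5.3 with R1881, a difference of 0.48 (0.254) with an interval of -0.04 to 1.01. Its response was -0.79 on the log2 scale relative to NT3, with an interval of -1.53 to -0.06 and an adjusted p of 0.718 for the interaction, which does not pass the threshold.

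In 42D these genes were called in both directions with R1881. In 42D NT3 10 of the 55 rose and 14 fell, where 13.9% of 15403 genes rose and 11.4% fell. In 42D sgT33-5 10 rose and 9 fell (background 14.1% and 13.2%), and 9 rises and 8 falls were shared. The share of rising genes is near the background in both lines and the share of falling genes in NT3 is above it, which is a description without a test. By role in NT3, 4 replication genes rose and 4 fell, 5 G1/S genes rose and 3 fell, and 1 mitotic gene rose and 7 fell. In sgT33-5 these counts were 3 and 2, 6 and 3, and 1 and 4. The median log2 fold change of the mitotic genes was -0.12 in NT3 and -0.09 in sgT33-5.

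Geminin rose most among the replication genes. GMNN stood at 31.3, 29.3 and 29.4 CPM in 42D NT3 with DMSO and 41.2, 44.4 and 40.1 with R1881, 0.50 (0.0655), and at 26.3, 28.5 and 29.1 CPM with DMSO and 37.0, 41.5 and 38.4 with R1881 in 42D sgT33-5, 0.48 (0.0662). No DMSO library of either line reached its R1881 libraries. In LNCaP NT3 the values were 33.0, 32.7 and 36.3 CPM with DMSO and 38.0, 31.1 and 37.6 with R1881, which overlap, and the log2 fold change was 0.06 (0.0841). GMNN was the 1 gene of the 55 whose NT3 response differed between the cell lines, by 0.42 (0.11), adjusted p = 0.02 (1.82% of all genes were called with a larger and 2.03% with a smaller response in 42D). That call was lost without LNCaP NT3 with DMSO, replicate 3 (adjusted p = 0.0631), LNCaP NT3 with R1881, replicate 2 (0.0901), or 42D NT3 with R1881, replicate 2 (0.0504).

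CDC6, which loads the helicase together with CDT1, went from 106, 112 and 99.8 to 133, 132 and 145 CPM in 42D NT3, 0.39 (0.0558), and rose by 0.40 (0.0557) in sgT33-5. RRM2 went from 279.6, 291 and 253 to 343, 336 and 316 CPM in NT3, 0.30 (0.0467), and rose by 0.36 (0.0467) in sgT33-5. Thymidine kinase (TK1) moved the other way, from 157, 167 and 162 to 127, 121 and 120.4 CPM in NT3, -0.38 (0.0439), with -0.22 (0.0435) in sgT33-5. The DMSO and R1881 libraries do not overlap for CDC6, RRM2 or TK1 in either line. MCM3 fell in both lines, with log2 fold changes of -0.18 and -0.16. MCM2 and MCM6 fell in NT3, at -0.13 and -0.17, with adjusted p of 0.0274 and 0.0193 and overlapping libraries for MCM6, and their values in sgT33-5 were -0.06 and -0.13, not called. The NT3 calls were lost without replicate 2 or 3 with R1881 for both genes, without replicate 2 with DMSO for both, and without replicate 3 (MCM2) or 1 (MCM6) with DMSO, with adjusted p of 0.0569 to 0.127. That of MCM3 in sgT33-5 was lost without replicate 3 with DMSO (0.0705) or replicate 2 with R1881 (0.0927). CDT1 was not called in either line, with adjusted p of 0.0689 and 0.857 and intervals of -0.38 to -0.04 in NT3 and -0.20 to 0.15 in sgT33-5.

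In the G1/S group, MYC had the largest fall. It stood at 306, 308 and 374 CPM in 42D NT3 with DMSO and 225, 205 and 229 with R1881, -0.56 (0.0827), and went from 306, 288 and 344 to 240.2, 233 and 256 CPM in sgT33-5, -0.36 (0.0824). All R1881 libraries lay below all DMSO libraries of the line. MYC in LNCaP NT3 was 165, 164 and 208 CPM with DMSO and 145, 143 and 172 with R1881, -0.23 (0.107), adjusted p = 0.21. E2F7, an atypical repressor, rose by 0.32 (0.0703) in 42D NT3 and 0.26 (0.0694) in sgT33-5, and CDC25A by 0.22 (0.0469) and 0.24 (0.0469). The ubiquitin ligase subunit SKP2, which marks p27 for degradation, fell in both lines, at -0.15 and -0.21. In NT3 the SKP2 call was lost with DESeq2 (adjusted p = 0.0735), without the filter (0.0515), without replicate 1 or 3 with DMSO (0.0766 and 0.106) and without replicate 2 or 3 with R1881 (0.108 and 0.143). CDKN1B, its substrate, fell in NT3, at -0.25, and was at -0.14 in sgT33-5, not called. CDK6 was called in both 42D lines, by 1.22 (0.405) and 1.28 (0.425), but from 4, 5 and 10 raw counts with DMSO to 16, 12 and 17 with R1881 in NT3. With DESeq2 the adjusted p for CDK6 was 0.116 in NT3 and 0.0906 in sgT33-5. The call was also lost without replicate 1 or 2 with DMSO or 1 or 3 with R1881 in NT3 (0.083 to 0.152) and without replicate 2 or 3 with DMSO or 3 with R1881 in sgT33-5 (0.0882 to 0.131).

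CDK1 was the 1 mitotic gene that rose. It stood at 214, 229.9 and 196 CPM in 42D NT3 with DMSO and 274, 319.7 and 257 with R1881, 0.43 (0.0805), and at 217, 230.3 and 214 CPM with DMSO and 313, 347 and 303 with R1881 in sgT33-5, 0.55 (0.0801). The phosphatase CDC25B, an activator of CDK1, fell from 76.7, 82.1 and 77.2 to 64.6, 66.7 and 58.1 CPM in NT3, -0.30 (0.0523). The checkpoint kinases BUB1 and BUB1B fell too, with log2 fold changes of -0.28 (0.0526) and -0.24 (0.0449). None of these 4 genes had overlapping groups in NT3. TOP2A (DNA topoisomerase), AURKA, CDC20 and the kinase PLK1 fell with log2 fold changes of -0.17, -0.17, -0.16 and -0.15. Calls were lost for TOP2A without replicate 3 with DMSO (adjusted p = 0.0583) or 1 with R1881 (0.0608), for AURKA without replicate 3 with DMSO (0.0535) or R1881 (0.106), and for PLK1 without replicate 3 with R1881 (0.0834). In sgT33-5 CDC25B, BUB1, BUB1B and TOP2A fell as well, at -0.23, -0.17, -0.27 and -0.20. There the BUB1 call was lost with DESeq2 (0.0643) and without replicate 2 or 3 with DMSO or 1 or 2 with R1881 (0.0522 to 0.128). MKI67 was not called, with intervals of -0.19 to 0.25 in NT3 and -0.43 to 0.01 in sgT33-5.

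**Figure D3:**
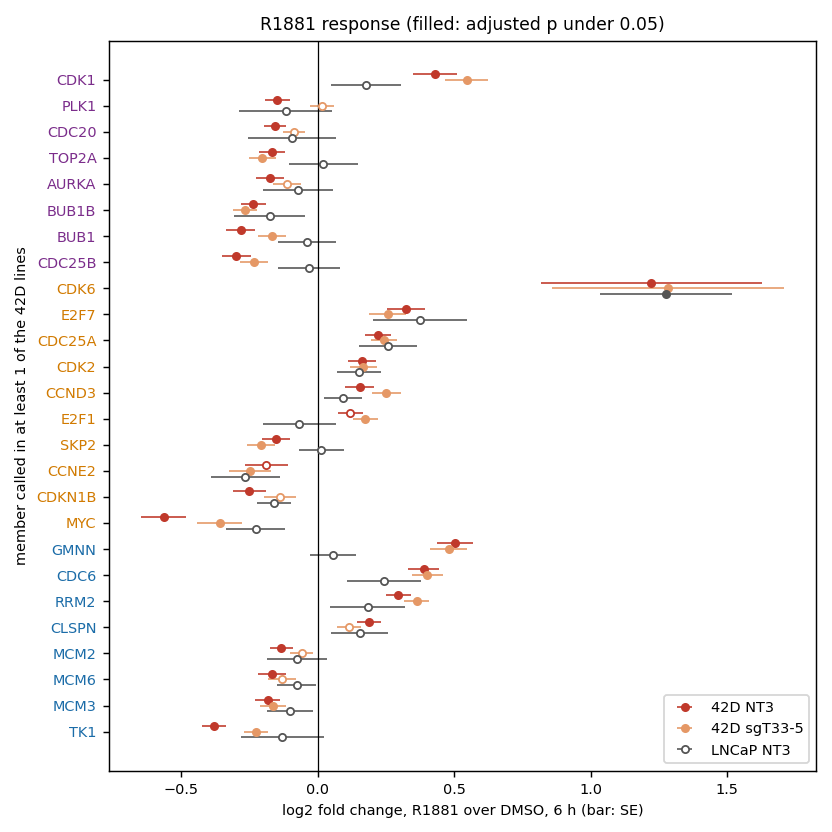
Log2 fold change with R1881 against DMSO in 42D NT3, 42D sgT33-5 and LNCaP NT3 for each gene called in at least 1 of the 42D lines, with bars for the SE and filled points for genes that passed the test. CDK6 is the 1 filled LNCaP point, and GMNN, CDC6, RRM2 and CDK1 lie to the right of 0 in both 42D lines while MYC, TK1 and CDC25B lie to the left.

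Outside the 55, CENPN, a centromere protein gene, rose in every line: 2.14 in LNCaP NT3, 1.79 in sgT33-5, 0.89 in C2, 1.95 in F2, 1.43 in 42D NT3 and 1.62 in 42D sgT33-5. In LNCaP NT3 5 of 55 other replication genes rose and 0 fell, 3 of 59 other mitotic genes rose and 0 fell, and 1 of 29 control genes rose and 2 fell. ATAD2, a chromatin ATPase, rose by 0.70 (0.101) and cyclin G2 (CCNG2) fell, at -0.83 (0.114). In 42D NT3 10 other replication genes rose and 0 fell, 4 of 60 other mitotic genes rose and 7 fell, and 4 control genes rose and 5 fell. Of the luminal markers, 6 rose and 1 fell in LNCaP NT3, and 6 rose and 2 fell in 42D NT3.

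The lines with the guide were each compared with NT3 of their cell line. These comparisons, and the hormone responses above, share NT3 libraries. In LNCaP sgT33-5, the line named by the guide alone, 0 of the 55 genes were called in edgeR at either treatment. The background was 0.509% higher and 0.889% lower with DMSO, and 0.979% and 2.06% with R1881. At an unadjusted p under 0.05 there were 2 with DMSO and 6 with R1881, and DESeq2 called 0 and 2. With R1881 the numbers pair the libraries, and with the replicate number as a block 3 genes were called higher. The background above is from the fit without the block. The medians over the 55 were 0.03 with DMSO and 0.03 with R1881. With both low-mitochondrial libraries left out, 0 genes were called at either treatment, and the medians were 0.02 with DMSO and -0.04 with R1881.

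Among the lines with the guide, C2 had the most called genes. With DMSO 17 were higher than in NT3 and 0 lower, where 8.53% of 15519 genes were higher and 9.63% lower. With R1881 24 were higher and 1 lower (background 9.67% and 13.3%), and 16 were higher at both treatments. By role, 10 replication, 4 G1/S and 3 mitotic genes were higher with DMSO, and 12, 6 and 6 with R1881. The median of the 55 was 0.26 with DMSO, against 0.0036 over all genes tested. These counts fell when some single libraries were left out. With DMSO 11 were called without NT3 replicate 1, 5 without NT3 replicate 2 and 5 without C2 replicate 1. With R1881 9 were called without NT3 replicate 2 and 12 without C2 replicate 1. Over all single libraries left out, the counts were 5 to 15 with DMSO and 9 to 28 with R1881. With a fit of only the libraries compared, 32 were called with DMSO. The background shares above are from the main fit and are not given for these alternatives. With the replicate number as a block 43 were called with DMSO and 40 with R1881, without a background share for that setting. The lowest pair correlations were 0.0332 and 0.0752, under the 0.1 needed to take the numbers as pairs.

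Among the genes higher in C2, CDT1 had the largest difference at both treatments. It stood at 9.94, 9.12 and 12.6 CPM in NT3 with DMSO and 21.6, 18.9 and 18.9 in C2, 0.91 (0.138), adjusted p = 2.56e-05, and at 9.63, 9.04 and 10.3 CPM in NT3 and 14.2, 16.8 and 18.7 in C2 with R1881, 0.79 (0.141). UHRF1 (chromosome 19, 4903080 to 4962154) stood at 28.7, 27.6 and 30.9 CPM in NT3 with DMSO and 53.7, 45.6 and 40.7 in C2, 0.69 (0.106). Every C2 library lay above every NT3 library for both genes. MCM2 was 136, 119 and 147 CPM in NT3 and 197, 179.9 and 171 in C2 with DMSO, 0.46 (0.109), and differed by 0.47 (0.109) with R1881. CDT1, UHRF1, MCM2 and the mitotic CDC25B were the 4 genes called under every alternative tried at DMSO. TK1 went from 105, 93.9 and 107 to 152, 137 and 138 CPM with DMSO, 0.48 (0.15), adjusted p = 0.0332. The TK1 call was lost without any 1 of the 6 libraries (adjusted p of 0.0566 to 0.128) and without the filter (0.0815). GMNN was not called, at -0.12 with an interval of -0.29 to 0.05 with DMSO, and CDC45, a helicase cofactor, had an interval of -0.33 to 0.32.

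E2F1 stood at 54.4, 47.6 and 56.7 CPM in NT3 with DMSO and 75.7, 66.0 and 71.4 in C2, 0.43 (0.131), and E2F2 at 11.5, 11.2 and 13.1 CPM in NT3 and 16.4, 15.8 and 14 in C2, 0.37 (0.105). The E2F1 call was lost without the filter (adjusted p = 0.0795) and without NT3 replicate 1 or 2 or C2 replicate 1 or 3 (0.0642 to 0.123), and that of E2F2 without replicate 1 or 2 of either line (0.0601 to 0.0848). CDC25A differed by 0.38 (0.105) with DMSO and was not called with R1881, at 0.23 (0.102). With DMSO its call was lost without NT3 replicate 2 or 3 or C2 replicate 1 (0.0568 to 0.0873). With R1881 CKS1B, MYC and CCND1 were also higher, by 0.43 (0.134), 0.34 (0.107) and 0.15 (0.0448). Without NT3 replicate 2 the adjusted p was 0.118 for CKS1B and 0.119 for MYC, CKS1B was also lost without C2 replicate 1 (0.0806), MYC without NT3 replicate 1 (0.0835), C2 replicate 3 (0.111) or the filter (0.0512), and CCND1 without C2 replicate 2 (0.0575) or 3 (0.0517). The 1 lower gene was CDK6, at 7.59, 7.18 and 10.2 CPM in NT3 with R1881 and 3.54, 4.54 and 5.3 in C2, -0.89 (0.223), with no overlap. With DMSO the CDK6 libraries of C2 and NT3 overlapped, with a difference of -0.09 (0.274).

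The mitotic log2 fold changes were positive for 19 of 19 genes in C2 at both treatments, with medians of 0.25 and 0.28, and 3 passed the test with DMSO and 6 with R1881. The summed mitotic level was lowest in replicate 2 in 8 of 8 LNCaP groups, so the 19 signs are not separate results. CDC25B was 73.9, 63.0 and 71.3 CPM in NT3 with DMSO and 102, 95.9 and 93.6 in C2, 0.49 (0.113). CDK1 was 235, 198 and 211 CPM in NT3 and 311, 281 and 294 in C2, 0.46 (0.128), and TOP2A 199, 163 and 206 CPM in NT3 and 246, 242 and 262 in C2, 0.41 (0.126). None of the 3 had overlapping libraries. The CDK1 call was lost without NT3 replicate 2 (adjusted p = 0.0772) or C2 replicate 1 (0.069), and that of TOP2A without the filter (0.0882) and without any 1 library other than NT3 replicate 3 (0.0593 to 0.155). With R1881 PLK1, CCNA2 and the survivin gene BIRC5 were called too, at 0.56 (0.167), 0.39 (0.134) and 0.46 (0.147). Without NT3 replicate 2 their adjusted p were 0.113, 0.196 and 0.151, and without C2 replicate 1 they were 0.0544, 0.126 and 0.0766. CCNA2 was also lost without NT3 replicate 1 (0.0597), C2 replicate 2 (0.0718) or the filter (0.0906), and BIRC5 without C2 replicate 2 or 3 (0.0502 each) or the filter (0.059). MKI67 was 242, 227 and 237 CPM in C2 with DMSO, 0.33 (0.159), adjusted p = 0.176.

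In the lists outside the 55, 15 of 55 other replication genes were higher in C2 with DMSO and 0 lower, 17 of 59 other mitotic genes were higher and 0 lower, and 4 of 29 control genes were higher and 3 lower. POLD1 was higher by 0.77 (0.153), the kinesin KIF18B by 0.65 (0.184) and CDKN2C, a CDK4 and CDK6 inhibitor, by 0.92 (0.106), while the antiproliferative gene BTG1 was lower, at -1.56 (0.0991). BTG1 was also lower with DMSO in F2, at -1.15 (0.0969), and in LNCaP sgT33-5, at -0.71 (0.0955). POLD1 was higher in F2 too, by 0.58 (0.154). Of the 9 luminal markers 0 were higher and 5 lower in C2 with DMSO, with sums of 2418 to 2442 CPM against 4310 to 4586 in NT3. Mitochondrial genes took 4.66% to 5.53% of counts in C2 and 5.70% to 6.66% in NT3. The part of these differences in the cell cycle result was not tested.

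In F2 the called genes were few. With DMSO 4 were higher and 0 lower (background 8.94% and 7.73%), and with R1881 3 and 0 (background 6.19% and 7.26%), shares near the background. CCND1 stood at 388, 408 and 416 CPM in NT3 with DMSO and 575, 603 and 608 in F2, 0.56 (0.0448), adjusted p = 1.18e-09, and at 372, 379.6 and 373 CPM in NT3 and 531, 570.3 and 544 in F2 with R1881, 0.55 (0.0449). CDK6 was 7.98, 6.99 and 10.3 CPM in F2 with DMSO, 1.31 (0.236) against NT3, and 19.5, 18 and 23.4 with R1881, 1.29 (0.192). Both partners of the CDK6 and cyclin D1 kinase were thus higher in F2 without overlap at either treatment. CDT1 was higher by 0.56 (0.14) with DMSO and 0.46 (0.145) with R1881, the latter lost under 5 alternatives, and UHRF1 by 0.44 (0.107) with DMSO. With DMSO the numbers pair the libraries, and the replicate block gave 10 higher and 1 lower, while the background above is from the fit without it. No mitotic gene was called in F2 at either treatment, and their medians were -0.01 and 0.0038.

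In 42D sgT33-5 0 of the 55 genes differed from NT3 in edgeR at either treatment (background 0.896% higher and 0.234% lower with DMSO, 0.396% and 0.117% with R1881). At an unadjusted p under 0.05 there were 5 and 5, and DESeq2 called 0 and 1. With R1881, where the numbers pair the libraries, the block gave 3 higher and 1 lower, while the background above is from the fit without it. CDT1 was 31.6, 26.3 and 30.4 CPM in 42D sgT33-5 with DMSO and 31.2, 37.3 and 34.2 in NT3, a difference of -0.21 (0.0812) with an interval of -0.38 to -0.04. The R1881 response of no gene among the 55 differed between a line with the guide and its NT3 by the interaction test in edgeR. The background was 0% in either direction for LNCaP sgT33-5 and F2, 0.0967% and 0.593% for C2, and 0.026% and 0.0974% for 42D sgT33-5. At an unadjusted p under 0.05 the counts were 0 for LNCaP sgT33-5, 1 for C2, 0 for F2 and 2 for 42D sgT33-5, and DESeq2 called 0 in each.

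**Figure D4:**
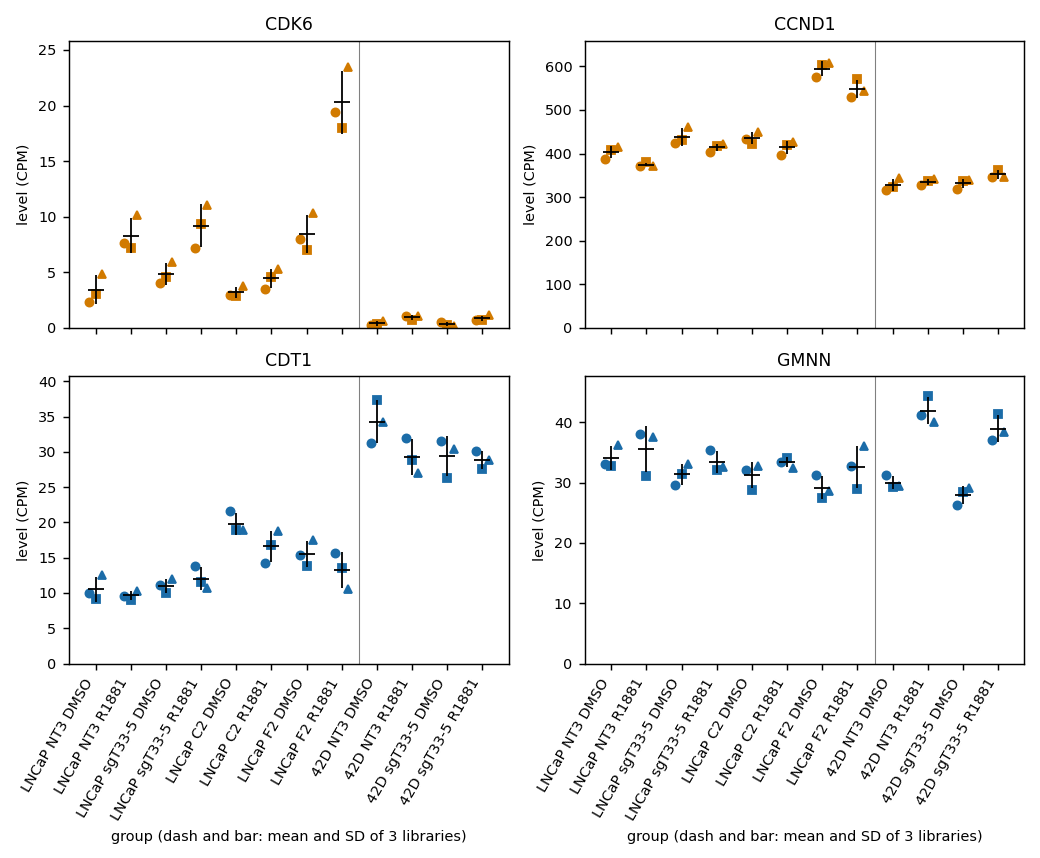
Level in CPM of CDK6, CCND1, CDT1 and GMNN in each of the 36 libraries by group, 1 symbol per replicate number, with the mean and SD of the group in black. CDK6 and CCND1 are highest in F2, CDT1 is highest in 42D, and GMNN is higher with R1881 than with DMSO in both 42D lines.

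**Figure D5:**
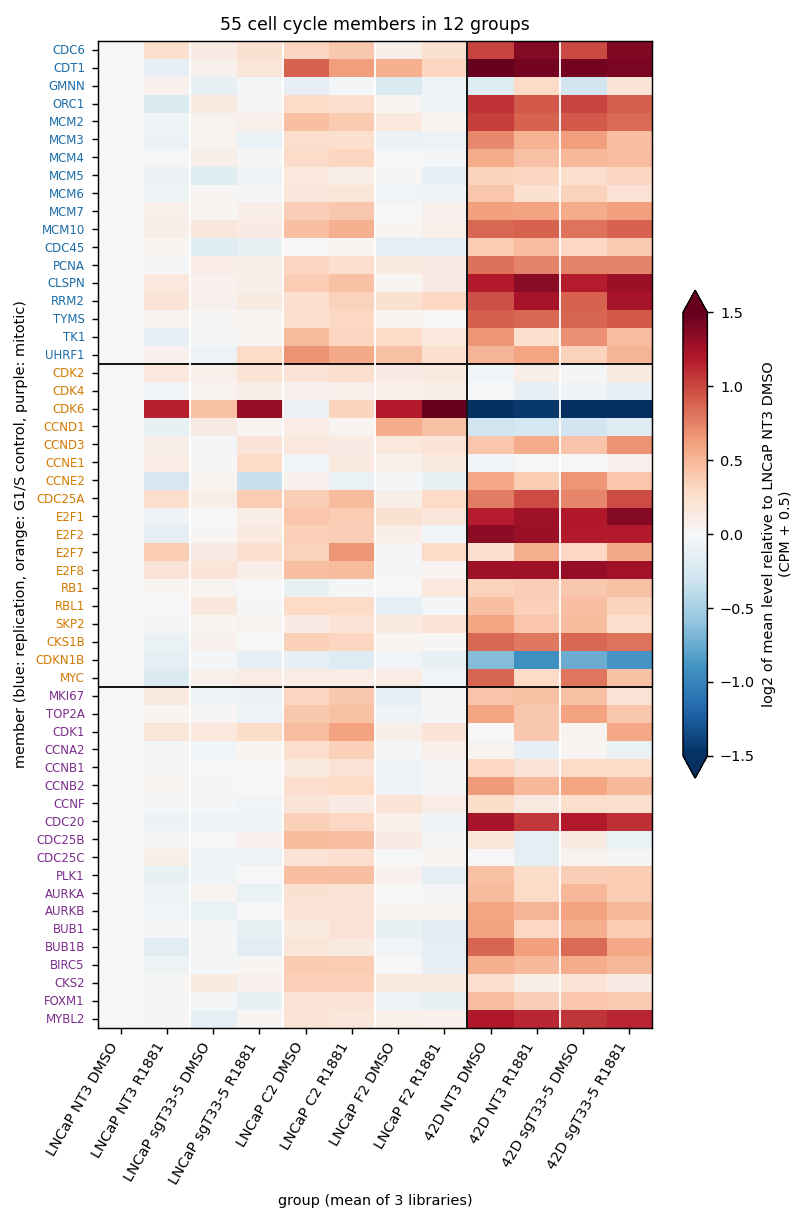
Log2 ratio of the mean level (CPM plus 0.5) of each of the 55 genes in the 12 groups to that in LNCaP NT3 with DMSO, by role, with colours capped at 1.5 in either direction. The 42D columns are above 0 for most genes, the C2 columns are above 0 by less, and CDK6 has the lowest values in 42D.

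Across all comparisons 4 of the 55 genes were called in none: CDK4, CCNE1, CDC25C and CKS2. How many of all genes tested were called in none was not counted, so this number is a description. Their levels in LNCaP NT3 with DMSO were 162 ± 5.43, 18.8 ± 1.92, 16.7 ± 1.31 and 68.5 ± 8.05 CPM (SD, n = 3). Gene models overlap at 8 of the 55 loci in a way that could move reads, since the counting setting for strand is not given in the sources used here. They are CCNA2 (with EXOSC9), CCNE2 (with INTS8 and NDUFAF6), CDC25C (with FAM53C), CDK4 (with TSPAN31 and MARCHF9), FOXM1 (with RHNO1), MCM7 (with AP4M1), SKP2 (with NADK2) and TYMS (with ENOSF1), and their values are uncertain to that extent.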

How the data were processed

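PolyA RNA was sequenced in 36 libraries, 3 in each of 12 groups. Per the submitters' processing notes, the authors used cutadapt and HISAT2 2.1.0 with GRCh38 (hg38). The counter, annotation release and strand setting are not given in the sources used here. The deposited table holds raw gene counts, and no column was of another series. Members and lists were chosen with earlier results of these data known.

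Tests were the 2-sided quasi-likelihood F test of edgeR 4.0.16 in R 4.3.3 with robust estimates, TMM scaling, its default filter on low counts, Benjamini-Hochberg adjustment over all genes tested, at a threshold of 0.05. Fits were made apart for the 24 LNCaP libraries (15519 genes), the 12 of 42D (15403) and all 36 (16564, between cell lines). Standard errors are the log2 fold change over the root of F, with 95% intervals from the degrees of freedom. CPM are counts over the library total after TMM adjustment, and RPKM divide them by the exon length in GENCODE v29. Replicates differed by more than counting error (chi-square per gene 2.73 to 26.6 in 36 pairs). All 55 genes may be named, and library values are given for up to 3 called genes per comparison, role and direction, from other lists for up to 2. Genes named beyond these were chosen after their values were seen. Replicate numbers were taken as pairs where each same-numbered pair's deviations correlated above 0.1, as in 6 comparisons. Other settings tried were RLE size factors, DESeq2 1.42.0, no filter, only the libraries compared, a replicate block, each library left out, and both libraries of low mitochondrial share left out. Scripts were tested on simulated data.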

Additional observations from a re-analysis of the deposited data

Results flagged for a closer look

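For 6 of the genes described here the response to R1881 differed between lines by the interaction test in edgeR, for CENPN in 2 comparisons. Among the 55, GMNN responded more in 42D NT3 than in LNCaP NT3, by 0.42 (0.11) on the log2 scale (adjusted p = 0.02), with the lost calls given above. Outside the 55, the chromatin assembly subunit CHAF1B responded more in 42D NT3, by 0.36 (0.0961) with an adjusted p of 0.0206. CENPN, the RB1 relative RBL2 and BTG1 responded less in 42D NT3 than in LNCaP NT3, with differences of -0.74 (0.151), -0.29 (0.0791) and -0.77 (0.123) and adjusted p of 0.0024, 0.0284 and 9.72e-05. In LNCaP, C2 responded less than NT3 for CENPN, with a difference of -1.25 (0.17) and an adjusted p of 0.000531, and for the primase subunit PRIM2, with -0.68 (0.139) and 0.0117. CENPN levels in LNCaP were 51.4, 46.6 and 57.6 CPM with DMSO and 207, 259 and 223 with R1881 in NT3, and 45.7, 42.5 and 46.6 with DMSO and 72.6, 83.3 and 95.7 with R1881 in C2.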

How the results depend on the processing

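Counts of called genes among the 55 are given here where an alternative moved them by over 1.5 times. No call reversed under any alternative run. With the replicate block the counts were 10 for R1881 in LNCaP NT3, 8 for the sgT33-5 line, 1 for C2 and 6 for F2 (1, 4, 0 and 1 without it). Against NT3 the block gave 2 for sgT33-5, 43 for C2 and 11 for F2 with DMSO, 3, 40 and 8 with R1881, and 4 for 42D sgT33-5 with R1881. Shares of all genes called are given for the main fit only, so the counts under alternatives have no background beside them. In C2 17 of the 19 mitotic genes were then called with DMSO and 15 with R1881. For differences in response it gave 1 for C2, 1 for 42D sgT33-5 and 2 for 42D against LNCaP. Not all of these numbers pair libraries: every pair correlated above 0.1 only for R1881 in F2 and in both 42D lines, F2 with DMSO, and sgT33-5 with R1881 in LNCaP and 42D. Without the filter the counts were 3 for R1881 in LNCaP NT3, 2 for 42D sgT33-5 with R1881 and 2 for the difference between cell lines. DESeq2 gave 2 for R1881 in F2, 2 for LNCaP sgT33-5 with R1881 and 1 for 42D sgT33-5 with R1881. A fit of only the libraries compared gave 32 for C2 with DMSO. Without the libraries of low mitochondrial share 1 gene was called for R1881 in LNCaP sgT33-5. Leaving out 1 library at a time gave 2 to 3 for R1881 in sgT33-5, 1 to 3 in F2, 5 to 15 for C2 with DMSO, 9 to 28 for C2 with R1881, and 0 to 1 for the difference between cell lines. Among the others were 16 to 25 for R1881 in 42D NT3, 15 to 20 in 42D sgT33-5, 40 to 46 for 42D against LNCaP with DMSO and 39 to 44 with R1881. The calls kept under every alternative were 39 of 46 and 38 of 43 for 42D against LNCaP with DMSO and R1881, 15 of 24 for R1881 in 42D NT3, 4 of 17 and 8 of 25 for C2 with DMSO and R1881, and 4 of 4 for F2 with DMSO. Apart from the limit that few counts set for CDK6 in 42D, the cause of each change was not tested.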
